A study of Mus musculus with 15 samples.

Results

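The hepatic gene expression of mice fed coffee that contained caffeine was compared with that of mice fed decaffeinated coffee, on the same high-fat diet. The rule took 9 of the 15 arrays of the series: 3 of mice given 2% caffeinated coffee in the high-fat diet (HFCC), 3 of mice given 2% unroasted green coffee in it (HFGC) and, set against these 6, 3 of mice given 2% decaffeinated coffee in it (HFDC). The other arrays, 3 of mice on the high-fat diet alone (HF) and 3 of mice on a normal diet (ND), shared the statistical model and are given as context. The mice were male C57BL/6J, 7 weeks old at the start, and ate and drank freely for 9 weeks. Each array held the total RNA of 1 liver, and the 3 arrays of a group came from 3 mice.

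The 3 coffee powders did not differ in caffeine alone. The green powder was not roasted and was richer in total polyphenols than the other powders, and the decaffeinated powder held a small remainder of caffeine. HFCC and HFGC shared a high caffeine content against HFDC, and caffeine and any other difference of the decaffeinated powder cannot be told apart in this design. All mice of the 3 groups carried the high-fat diet, and no group received caffeine on its own.

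The tissue label held in the 9 arrays. Alb, the plasma protein albumin, averaged 14.77 log2 intensity in the caffeine-containing coffee groups and 14.77 in HFDC, and the pericentral enzyme Cyp2e1 averaged 14.36 and 14.33. The summed intensity of 10 hepatocyte genes was 128830 to 132004 in the 6 arrays with caffeine and 125361 to 134186 in the 3 HFDC arrays. Values are intensities of an oligonucleotide array summarised per probe set, and each gene is represented by its brightest probe set, those marked x, which can bind unrelated transcripts, being used only where there was no other. A difference in bulk liver can come from fewer cells of a type or from less RNA per cell, and these cannot be told apart.

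Caffeine is a methylated xanthine. It blocks adenosine receptors, at higher concentrations slows the phosphodiesterases that break down cyclic AMP, and is cleared in the liver mainly by the cytochrome Cyp1a2. The liver is also the main site of cholesterol synthesis, a chain of enzymes that leads from acetyl-CoA through mevalonate, farnesyl diphosphate and squalene to sterols. The transcription factor SREBP2, the product of Srebf2, switches on almost the whole chain when the sterol content of the endoplasmic reticulum falls. Its binding sites in the promoters of these genes commonly lie beside CCAAT boxes, which bind the factor NF-Y.

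Of 18193 genes, 30 (0.165%) differed between the caffeine-containing coffees and HFDC at an adjusted p under 0.05 (limma, Benjamini-Hochberg), 16 higher (0.0879%) and 14 lower (0.077%). The higher genes were led by the sterol enzymes Fdps and Mvd, with fold changes of 4.53 and 4.24, and included the stress and hormone responsive genes Per1, Tsc22d3 and Ddit4. The lower genes were led in size by Rhpn2, 2.05-fold lower, and in p by the lysophospholipase gene Pnpla7. The 6 arrays with caffeine and the 3 HFDC arrays did not overlap for 29 of the 30 called genes, Nsdhl being the exception. These arrays also chose the genes, so this is a description. Over all genes the share without overlap was 6.08%, 549 genes (3.02%) with all 6 arrays above HFDC and 557 (3.06%) with all 6 below. An unadjusted p under 0.05 was reached by 1631 genes (8.96%), and the median log2 fold change of all genes was -0.01.

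The number of called genes depended on which HFDC array was in the fit. It was 49 without HFDC replicate 1, 5 without HFDC replicate 2 and 3 without HFDC replicate 3, and 18 without HFCC replicate 1 or HFCC replicate 3. Leaving out HFDC replicate 1, 2 or 3 ended the call of 11, 26 and 27 of the 30 genes, and no called gene changed sign under any of the alternatives. Kctd7 and Pnpla7 passed in each of these fits. Nsdhl, Acsl3 and Rnf152 were the least stable calls, lost in 20, 19 and 17 of 25 alternatives, among them fits without single HF or ND arrays. HFDC replicate 1 stood apart from the other HFDC arrays for the sterol genes described below, and its values are given there.

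**Figure D1:**
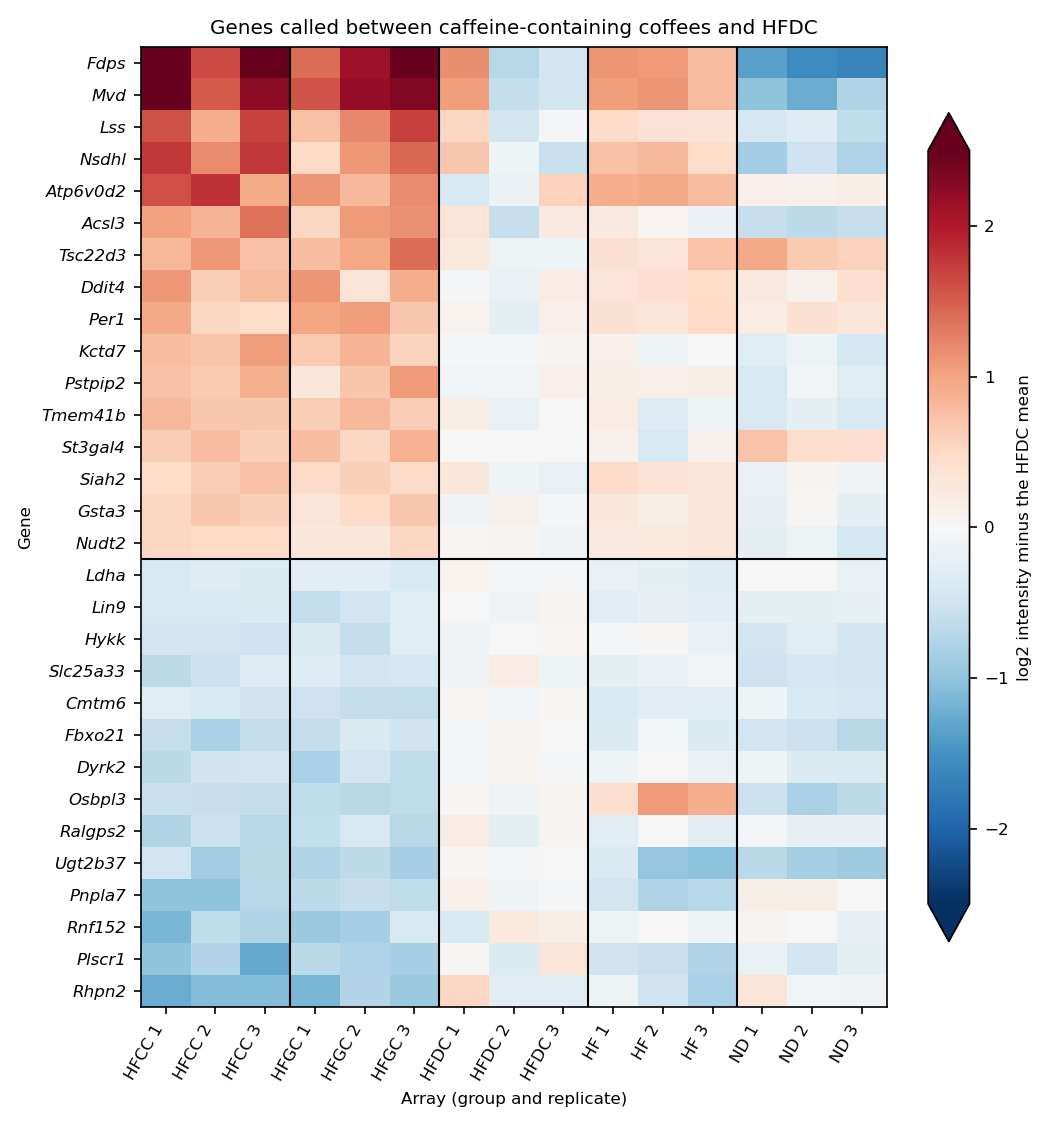
Log2 intensity of the 30 called genes in each of the 15 arrays, minus the mean of the 3 HFDC arrays, with genes as rows ordered by log2 fold change and arrays as columns (HFCC, HFGC, HFDC, HF, ND). The 16 genes above the line were red in the HFCC and HFGC columns and the 14 below it blue, and for Fdps and Mvd the column of HFDC replicate 1 was redder than those of the other HFDC arrays; colours saturate beyond 2.5.

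Genes of cholesterol synthesis made up 4 of the 16 higher genes, and the direction was the same across the list. Of 25 listed genes 20 were measured, and the others were not analysed here. All 20 were above 0, against 45.7% of all genes, and their median log2 fold change was 1.17. Mvd, Fdps, Lss and Nsdhl were called higher and none was called lower. An unadjusted p under 0.05 was reached by 19 of the 20, against 4.44% of all genes in that direction. In 7 of the 20 the 6 arrays with caffeine lay above the 3 HFDC arrays, against 3.02% of all genes.

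The promoters of these genes are shown because the members differed in 1 direction. RefSeq windows on GRCm38.p6, 250 bases before to 50 after the start, were found for 16 of the 20 genes, and not for Fdps, Fdft1, Sqle or Stard4. Motif shares are over the 27025 genes with a RefSeq window, not over the genes tested, and a gene counted if any of its windows matched. A CCAAT box, the letters CCAAT on either strand, was present in all 16 of the 16, against 41.1% of all genes with a window and 37.4% of all windows. In Dhcr7 and Pmvk only some of the windows held it. The sterol regulatory element written as TCACNCCAC was present in 1 of the 16, Hmgcs1, against 1.44% of all genes with a window. These 2 motifs were chosen after the values were seen, and a match of letters is a description, not a site of binding. The windows of 2 called genes and of Hmgcs1 are printed with CCAAT boxes in capitals, and in Hmgcs1 the sterol element too, at chr8:122443373-122443672, minus strand (Mvd), chr10:76531355-76531654, plus strand (Lss), and chr13:119690101-119690400, plus strand (Hmgcs1).
Mvd: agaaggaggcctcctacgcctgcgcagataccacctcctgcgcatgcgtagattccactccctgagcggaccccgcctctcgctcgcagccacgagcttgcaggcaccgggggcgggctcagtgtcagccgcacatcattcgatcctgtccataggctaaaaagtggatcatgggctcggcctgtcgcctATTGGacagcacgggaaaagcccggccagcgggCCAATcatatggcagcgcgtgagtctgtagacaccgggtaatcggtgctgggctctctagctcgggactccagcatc
Lss: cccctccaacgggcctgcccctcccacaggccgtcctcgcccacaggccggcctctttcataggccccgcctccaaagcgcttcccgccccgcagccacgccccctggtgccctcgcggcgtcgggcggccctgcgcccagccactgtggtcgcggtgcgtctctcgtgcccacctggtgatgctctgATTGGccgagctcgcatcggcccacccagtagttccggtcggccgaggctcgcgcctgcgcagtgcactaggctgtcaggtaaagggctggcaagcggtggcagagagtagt
Hmgcs1: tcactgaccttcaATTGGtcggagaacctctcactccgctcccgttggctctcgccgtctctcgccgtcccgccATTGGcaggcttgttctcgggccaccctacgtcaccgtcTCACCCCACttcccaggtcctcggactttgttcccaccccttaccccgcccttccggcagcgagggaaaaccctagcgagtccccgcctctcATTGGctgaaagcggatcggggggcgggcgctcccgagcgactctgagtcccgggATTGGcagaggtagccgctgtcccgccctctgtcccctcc
The CCAAT boxes began 60 and 27 bases before the start of Mvd and 62 bases before that of Lss. Hmgcs1 had 4 of them, and its sterol element began 137 bases before the start.

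In the mevalonate part of the chain, Mvd, the decarboxylase that makes isopentenyl diphosphate, had 9.48, 8.39 and 9.10 log2 intensity in HFCC, 8.44, 9.05 and 9.18 in HFGC, and 7.90, 6.27 and 6.40 in HFDC. All 6 arrays with caffeine were above the highest HFDC array, and HFDC replicate 1 lay well above its 2 companions. The difference was 2.08 ± 0.31 (SE) on the log2 scale, with an adjusted p of 0.015 (limma). Hmgcs1, which makes HMG-CoA and stands at the head of the chain, differed by 1.51 with an adjusted p of 0.10, and the kinases Mvk and Pmvk by 0.70 and 1.04 with an adjusted p of 0.064 each. For Mvk and Pmvk the groups did not overlap, and for Hmgcs1 they did. With the mean of probe sets Mvk differed by 0.46 and Hmgcs1 by 1.64.

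Fdps, the synthase of farnesyl diphosphate, had 11.15, 10.07 and 11.02 in HFCC, 9.80, 10.52 and 10.97 in HFGC, and 9.58, 7.69 and 7.95 in HFDC, all as log2 intensity. The lowest array with caffeine, HFGC replicate 1, was above the highest HFDC array, replicate 1, by a small margin, and above the other HFDC arrays by a wide one. The difference was 2.18 ± 0.35 (SE) with an adjusted p of 0.020 (limma). Its second probe set, dim at a mean of 2.57, differed by -0.14, and with the mean of both the difference was 1.02 with an adjusted p of 0.059. Idi1, which isomerises isopentenyl diphosphate, differed by 2.01 with an adjusted p of 0.064. Fdft1, squalene synthase, differed by 1.47 with an adjusted p of 0.060, and in both genes the groups overlapped. With the mean of probe sets Idi1 differed by 2.21 (adjusted p = 0.079, limma) and Fdft1 by 0.70 (adjusted p = 0.14).

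Sqle, squalene epoxidase, had the largest difference of the list and did not pass. It had 10.82, 9.65 and 10.56 log2 intensity in HFCC, 9.45, 10.04 and 10.70 in HFGC, and 9.54, 6.82 and 5.86 in HFDC, a log2 difference of 2.80 with an adjusted p of 0.064 (limma). HFDC replicate 1 overlapped the arrays with caffeine, while HFDC replicates 2 and 3 were far below them and apart from each other.

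Lss, which closes squalene epoxide into lanosterol, had 9.18, 8.48 and 9.27 in HFCC, 8.31, 8.78 and 9.28 in HFGC, and 8.09, 7.12 and 7.53 in HFDC. The groups did not overlap and differed by 1.31 ± 0.22 (SE) with an adjusted p of 0.027 (limma). The other probe sets of Lss differed by 1.34 and 0.18. With the mean of its probe sets the difference was 0.94 with an adjusted p of 0.059. Nsdhl, a sterol dehydrogenase of the later steps, differed by 1.28 ± 0.23 (SE) with an adjusted p of 0.043, and HFGC replicate 1, at 8.90, was below HFDC replicate 1, at 9.08. Of the other late enzymes, Msmo1 differed by 2.05, Cyp51 by 1.64 and Dhcr7 by 1.06 on the log2 scale, with adjusted p-values of 0.054, 0.064 and 0.097. Smaller differences were found in Tm7sf2 (0.77), Hsd17b7 (0.73), Sc5d (0.33) and Ebp (0.30), none of which passed. Insig1, an anchor of SREBP in the endoplasmic reticulum, differed by 1.03 with an adjusted p of 0.085. Stard4, a sterol transfer protein, differed by 0.62 with an adjusted p of 0.064. Srebf2 itself differed by 0.14, with a 95% confidence interval of -0.08 to 0.36. With the mean of its probe sets Srebf2 differed by 0.44, with an adjusted p of 0.14 (limma).

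**Figure D2:**
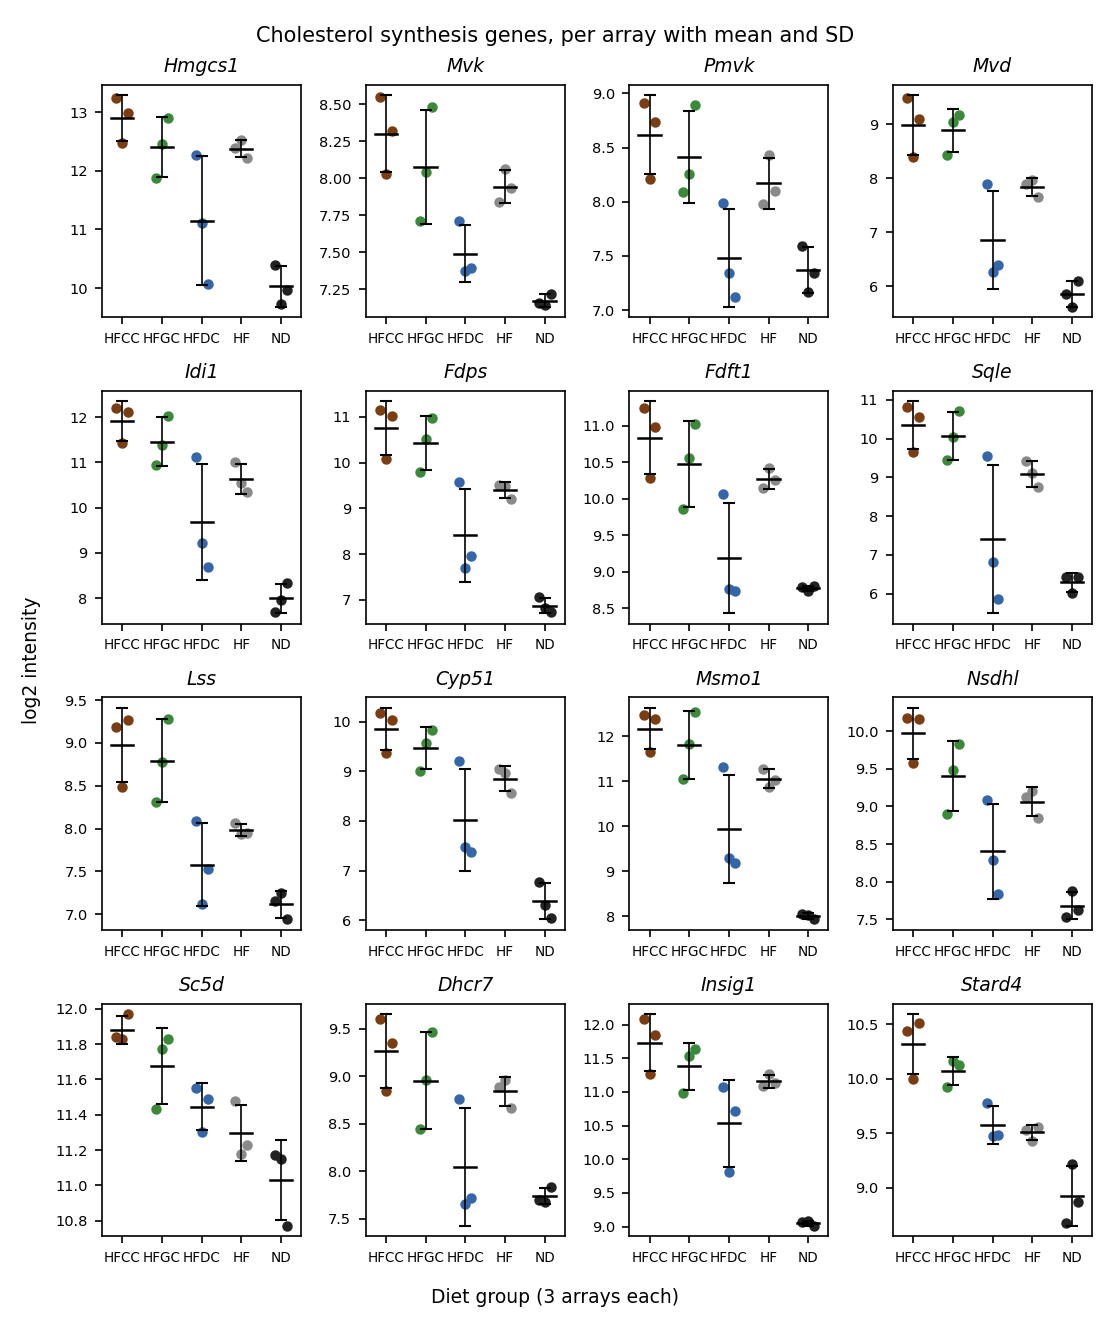
Log2 intensity of 16 cholesterol synthesis genes in the 5 diet groups, 1 point per array (replicates 1 to 3 from left to right), with the group mean (bar) and SD (whisker). In most panels the HFCC and HFGC points were the highest, HFDC replicate 1 lay near the HF arrays, HFDC replicates 2 and 3 lay lower, and the ND arrays were lowest or near the lowest.

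The arrays shared an order across the list. The mean log2 intensity of the 20 genes was 10.56, 9.91 and 10.46 in HFCC, 9.62, 10.04 and 10.43 in HFGC, and 9.68, 8.58 and 8.49 in HFDC. HFCC replicate 2 and HFGC replicate 1 were the lowest of the arrays with caffeine, and HFGC replicate 1 was below HFDC replicate 1. The HF arrays had 9.47 to 9.66 and the ND arrays 8.12 to 8.18, so the mean of HFDC replicate 1 was close to the HF arrays. Leaving out HFDC replicate 1 raised the count of called genes in the list to 15 and its median log2 fold change to 1.49. Without HFDC replicate 2 or HFDC replicate 3 no member was called, and the median was 0.99 at the lowest, without replicate 3. The count was 9 without HFCC replicate 2 and 7 without HFGC replicate 1, and it was 1 without HFCC replicate 1, HFCC replicate 3 or HFGC replicate 2. The direction of Fdps, Mvd, Sqle and Lss was the same in every one of these fits, with log2 fold changes of 1.82, 1.79, 2.51 and 1.07 without HFDC replicate 2. For Sqle it was 3.87 without HFDC replicate 1 and 2.02 without HFDC replicate 3. In the fit to the 9 compared arrays alone none of the list was called either, and Fdps and Mvd had adjusted p-values of 0.095 and 0.069.

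Few genes of neighbouring lipid pathways were called. Of 26 genes of fatty acid and triglyceride synthesis none was called, 5 had a p under 0.05 upward and 2 downward (4.44% and 4.53% of all genes), and the median was 0.06. Thrsp, a lipogenic nuclear protein, had a difference of 1.53 and Fasn, fatty acid synthase, one of 0.96 on the log2 scale, with unadjusted p-values of 0.00023 and 0.0073 (limma). Acsl3, a long-chain acyl-CoA synthetase of lipid droplets, was called higher at 0.99 ± 0.18 (SE) with an adjusted p of 0.047, a call lost in 19 of 25 alternatives and with 12 of the 15 arrays when each was left out, and its other 2 probe sets differed by 0.97 and 0.49. Osbpl3, an oxysterol-binding protein relative, was the called member of the sterol carrier list, at 5.10, 5.08 and 5.05 in HFCC, 5.01, 4.96 and 5.01 in HFGC, and 5.67, 5.57 and 5.72 in HFDC. The groups did not overlap, the difference was -0.62, and its other probe sets differed by -0.73 and, in a dim one, 0.05. Of the bile acid genes, Cyp7a1, which starts bile acid synthesis, had 11.87, 11.36 and 11.91 in HFCC, 11.92, 11.87 and 11.10 in HFGC, and 12.03, 10.17 and 10.57 in HFDC, where replicate 1 was again the highest array of its group.

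Per1, Tsc22d3 and Ddit4 were higher in both caffeine-containing coffees, and the groups did not overlap in any of the 3. Per1 is a component of the negative limb of the circadian clock and is induced by glucocorticoids and cyclic AMP. It had 8.14, 7.71 and 7.65 log2 intensity in HFCC, 8.17, 8.23 and 7.86 in HFGC, and 7.28, 6.96 and 7.32 in HFDC. The difference was 0.77 ± 0.11 (SE), 1.71-fold, with an adjusted p of 0.015 (limma). The HF arrays, at 7.54 to 7.68, and the ND arrays, at 7.38 to 7.57, lay above the HFDC arrays, and HF replicate 3 was just above HFCC replicate 3.

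The upstream of the 2 RefSeq windows of Per1 is shown with the cyclic AMP half-site TGACG and the E-box CACGTG in capitals, at chr11:69098699-69098998, plus strand on GRCm38.p6.
Per1: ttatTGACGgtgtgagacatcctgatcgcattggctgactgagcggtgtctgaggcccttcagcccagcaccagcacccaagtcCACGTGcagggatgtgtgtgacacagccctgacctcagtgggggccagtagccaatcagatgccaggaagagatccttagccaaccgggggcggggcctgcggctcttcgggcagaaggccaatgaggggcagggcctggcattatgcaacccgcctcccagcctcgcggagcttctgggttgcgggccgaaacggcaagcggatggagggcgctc
The half-site began 246 and the E-box 166 bases before the start. Of the 25 called genes with a window, 9 held TGACG on either strand and 4 held CACGTG (Ldha, Per1, Pnpla7 and Slc25a33), against 23% and 8.09% of all genes with a window. None of the 25 genes held the aryl hydrocarbon receptor element TTGCGTG in any window, against 1.35% of all genes with a window. At so low a share, none among 25 genes is not unusual. The core of that element, GCGTG, was held by 19 of the 25, against 35.2% of all genes with a window. Fdps, Atp6v0d2, Lin9, Siah2 and Pstpip2 had no window.

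Tsc22d3, the glucocorticoid-induced leucine zipper, had 10.55, 10.80 and 10.45 in HFCC, 10.47, 10.68 and 11.11 in HFGC, and 9.96, 9.59 and 9.62 in HFDC. The difference was 0.95 ± 0.14 (SE) with an adjusted p of 0.015 (limma), and its other probe sets differed by 1.04, 0.40 and 0.09, the last of them dim. Ddit4, an inhibitor of mTORC1 induced by stress and glucocorticoids, had 7.90, 7.41 and 7.60 in HFCC, 7.92, 7.16 and 7.72 in HFGC, and 6.79, 6.64 and 6.99 in HFDC. HFGC replicate 2 was the array with caffeine nearest to HFDC, and the difference was 0.81 ± 0.14 (SE) with an adjusted p of 0.034. Leaving out HFDC replicate 2 or 3 brought the adjusted p of the 3 genes to between 0.083 and 0.19, at log2 fold changes of 0.66 to 0.91. Without HFDC replicate 1 Per1 and Tsc22d3 were called and Ddit4 was not (adjusted p = 0.078), and Ddit4 also lost its call without HFCC replicate 1 or 3, HFGC replicate 3, or HF replicate 1 or 3.

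Few other members of the lists around these genes were called. Of 16 glucocorticoid-responsive genes Per1 and Tsc22d3 were called higher and 11 were above 0, against 0.0879% and 45.7% of all genes, and the median was 0.22. Mt1, a metallothionein, had a log2 difference of 1.11 and Tat, tyrosine aminotransferase, one of 0.59 without passing, and Fkbp5 had 0.35 (95% confidence interval -0.03 to 0.73). Of 21 clock genes Per1 alone was called and the median was 0.00. Per2, Bhlhe40 and Cry1 had differences of 0.56, 0.47 and 0.41 and Dbp -0.33, none of which passed. Per2 had 8.52, 8.54 and 8.58 in HFCC, 8.62, 8.99 and 9.01 in HFGC, and 8.08, 8.03 and 8.35 in HFDC, so its groups did not overlap. Of 21 ATF4 targets Ddit4 was called, and Ddit3 and Atf4 had differences of 1.01 and 0.36 with unadjusted p-values of 0.00043 and 0.00053. The hour of sampling of each mouse was not used here.

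**Figure D3:**
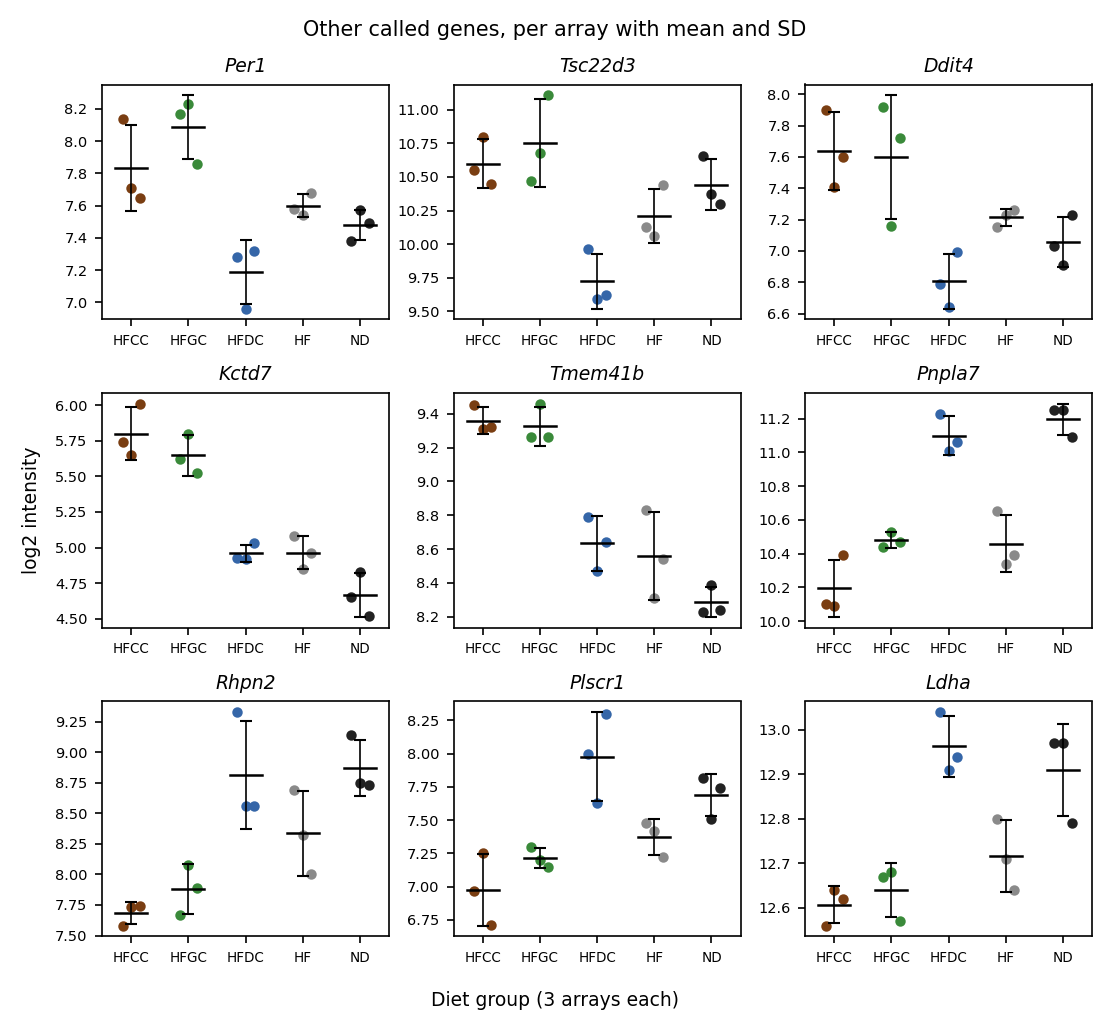
Log2 intensity of 9 called genes outside cholesterol synthesis in the 5 diet groups, 1 point per array (replicates 1 to 3 from left to right), with the group mean (bar) and SD (whisker). HFCC and HFGC lay above HFDC for Per1, Tsc22d3, Ddit4, Kctd7 and Tmem41b and below it for Pnpla7, Rhpn2, Plscr1 and Ldha; the HF arrays lay near HFDC for Kctd7 and Tmem41b and near the coffees with caffeine for Pnpla7.

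Pnpla7 had the smallest p of all genes. It encodes a lysophospholipase of the patatin-like family that acts on lysophosphatidylcholine in the endoplasmic reticulum. Its log2 intensity was 10.10, 10.09 and 10.39 in HFCC, 10.44, 10.53 and 10.47 in HFGC, and 11.23, 11.01 and 11.06 in HFDC. All 6 arrays with caffeine were below the lowest HFDC array, and the difference was -0.77 ± 0.09 (SE), 1.7-fold lower, with an adjusted p of 0.0044 (limma). For both coffees together it was called under all 25 alternatives tried. It was also called in each coffee on its own, at -0.91 in HFCC and -0.62 in HFGC, but no gene was called for HFGC with all probe sets, with an offset of 32 or with the replicate block.

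The arrays of HFDC and of the normal diet lay close together for Pnpla7. The HF arrays had 10.65, 10.34 and 10.39 and the ND arrays 11.25, 11.25 and 11.09, so the HF mean was 0.74 below the ND mean on the log2 scale, with an adjusted p of 0.0011 (limma). The caffeine-containing coffees differed from HF by -0.13 (adjusted p = 0.42) and HFDC differed from HF by 0.64 (adjusted p = 0.016); the 2 comparisons share the HF arrays. Of the 28 measured genes of the patatin-like and phosphatidylcholine list Pnpla7 alone was called, the median was -0.02, and Pnpla2, the triglyceride lipase of lipid droplets, differed by -0.00 (95% confidence interval -0.24 to 0.23). Pla2g6, a phospholipase, and Pemt, which makes phosphatidylcholine by methylation, had differences of -0.41 and 0.24 without passing. The RefSeq window of Pnpla7, at chr2:24975783-24976082, plus strand on GRCm38.p6, is shown because it held 2 E-boxes, in capitals.
Pnpla7: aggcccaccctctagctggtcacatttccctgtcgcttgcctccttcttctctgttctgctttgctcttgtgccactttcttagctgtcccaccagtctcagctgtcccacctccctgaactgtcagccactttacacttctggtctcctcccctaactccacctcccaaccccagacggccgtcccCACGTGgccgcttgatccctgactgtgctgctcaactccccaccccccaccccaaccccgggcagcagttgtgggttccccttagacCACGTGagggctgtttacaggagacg
They began 63 bases before and 25 bases after the start.

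Kctd7, a potassium channel tetramerisation domain protein, kept its call for both coffees together under every alternative in which it was tested, as did Pnpla7. Kctd7, Pnpla7 and Dyrk2 were also called in each coffee on its own, where the calls depended on the processing. Kctd7 had 5.74, 5.65 and 6.01 log2 intensity in HFCC, 5.62, 5.80 and 5.52 in HFGC, and 4.93, 4.92 and 5.03 in HFDC, a difference of 0.76 ± 0.09 (SE) with an adjusted p of 0.0053 (limma). The HF arrays had 4.85 to 5.08, as low as HFDC. Its second probe set, brighter at a mean of 7.99 and of the kind marked x, differed by 0.08 ± 0.08, so the difference was seen in 1 of the 2 probe sets. Kctd7, Lin9, Osbpl3 and Ugt2b37 were the 4 called genes below the median level of all genes.

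The other higher genes had no list of their own or were single members of one. Tmem41b, a lipid scramblase of the endoplasmic reticulum needed for autophagosome formation, had 9.45, 9.31 and 9.32 in HFCC, 9.26, 9.46 and 9.26 in HFGC, and 8.79, 8.47 and 8.64 in HFDC. Its difference was 0.71 ± 0.10 (SE), and its other 5 probe sets differed by 0.28 to 0.65. Atp6v0d2, a subunit of the vacuolar proton pump, had 8.15, 8.34 and 7.45 in HFCC, 7.64, 7.35 and 7.72 in HFGC, and 6.12, 6.38 and 7.10 in HFDC, with HFDC replicate 3 closest to the arrays with caffeine. The difference was 1.25 ± 0.19 (SE), and 1.12 in the second probe set.

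Gsta3, a glutathione S-transferase, had 13.11, 13.28 and 13.20 in HFCC, 12.93, 13.08 and 13.27 in HFGC, and 12.51, 12.71 and 12.58 in HFDC, a difference of 0.54 ± 0.09 (SE). It was the called member among 21 NRF2 targets, whose median was 0.03, and Gstm2 and Gstm3 had differences of 0.74 and 0.42 without passing. St3gal4, a sialyltransferase, was 0.69 higher, with the arrays with caffeine between 9.14 and 9.49 and the HFDC arrays between 8.62 and 8.64. The remaining higher genes were Pstpip2 (0.72), a membrane-bending protein of myeloid cells, Siah2 (0.55), a ubiquitin ligase, and Nudt2 (0.43), which cleaves dinucleoside polyphosphates. Adjusted p-values of Tmem41b, Atp6v0d2, Gsta3, St3gal4, Pstpip2, Siah2 and Nudt2 were 0.015 to 0.036 (limma). Of the 7, Atp6v0d2 alone kept the call without HFDC replicate 3, and none did without HFDC replicate 2.

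Among the lower genes, Rhpn2, a scaffold protein, had 7.58, 7.73 and 7.74 in HFCC, 7.67, 8.08 and 7.89 in HFGC, and 9.33, 8.56 and 8.56 in HFDC. The groups were far apart, with HFDC replicate 1 the highest array, and the difference was -1.04 ± 0.17 (SE), or -1.06 in its second probe set. Plscr1, a phospholipid scramblase induced by interferon, had 6.97, 7.25 and 6.71 in HFCC, 7.30, 7.20 and 7.15 in HFGC, and 8.0, 7.63 and 8.30 in HFDC, a difference of -0.88 ± 0.13 (SE). Of 24 listed interferon-stimulated and antigen presentation genes none passed, and the median was -0.01.

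Dyrk2, a protein kinase, had 8.83, 9.01 and 9.02 in HFCC, 8.69, 9.03 and 8.87 in HFGC, and 9.46, 9.56 and 9.47 in HFDC, and was called in each coffee on its own. The difference was -0.59 ± 0.08 (SE), and its other 3 probe sets differed by -0.52, -0.14 and -0.18. Ldha, lactate dehydrogenase, was the smallest called difference, -0.34 ± 0.06 (SE), at 12.56 to 12.68 in the 6 arrays with caffeine and 12.91 to 13.04 in HFDC. It was the called member among 24 genes of glycolysis and gluconeogenesis, whose median was 0.06. Ugt2b37, a glucuronosyltransferase, differed by -0.71, at 5.32 to 5.71 with caffeine and 6.14 to 6.22 in HFDC, and Ugt2b38 of the same family had the largest negative value of that list, -1.71, without passing (adjusted p = 0.064). Probe sets of such near-identical family members can share target, so the 2 values may not be separate.

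The remaining lower genes were Rnf152 (-0.79), a lysosomal ubiquitin ligase, Ralgps2 (-0.62), an exchange factor of Ral GTPases, Fbxo21 (-0.58), a subunit of ubiquitin ligases, Cmtm6 (-0.48), a membrane protein that stabilises PD-L1, Slc25a33 (-0.45), a mitochondrial pyrimidine nucleotide carrier, Hykk (-0.44), hydroxylysine kinase, and Lin9 (-0.43), a subunit of the cell cycle complex DREAM. For Fbxo21, Hykk, Ralgps2 and Lin9 the other probe sets differed by -0.20 to 0.02, less than the one used. Adjusted p-values of the lower genes other than Pnpla7 were 0.015 to 0.049 (limma). Of the lower genes other than Pnpla7, Plscr1 and Ralgps2 kept the call without HFDC replicate 2 and none kept it without HFDC replicate 3.

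No measured gene of the lists drawn up around caffeine passed the test, which 0.165% of all genes passed. At that share, lists of this size would often hold none. Cyp1a2 had 12.03, 12.01 and 12.18 log2 intensity in HFCC, 11.94, 12.06 and 11.88 in HFGC, and 11.85, 11.95 and 11.91 in HFDC. The groups overlapped and the difference was 0.11, with a 95% confidence interval of -0.05 to 0.28. Cyp1a1 and Cyp1b1, the other targets of the aryl hydrocarbon receptor in that family, differed by 0.06 (-0.14 to 0.26) and 0.07 (-0.07 to 0.22). None of the 13 measured genes of caffeine metabolism and the receptor's targets was called and the median was 0.03. An unadjusted p under 0.05 (limma) was reached by 2 of them upward and none downward, against 4.44% and 4.53% of all genes. Ahr, the receptor, had a difference of 0.46 with an unadjusted p of 0.049, with HFDC replicate 1, at 10.79, as high as the arrays with caffeine.

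Adora3 was the adenosine receptor measured, at 5.03 to 5.32 with caffeine and 5.03 to 5.28 in HFDC, and Adora1, Adora2a and Adora2b were not analysed here. None of the 19 measured genes of adenosine signalling passed, nor any of 18 phosphodiesterases, 23 genes of purine breakdown and salvage or 11 calcium channels and pumps, with medians of 0.02, -0.02, 0.04 and 0.01. In that order, 3, 1, 3 and 1 members had an unadjusted p under 0.05 upward (limma). Downward there were 1, 3, 1 and 0. The shares of all genes were 4.44% upward and 4.53% downward. Values with an unadjusted p under 0.05 included those of Crem (0.41), Pde4b (0.61), Pde9a (-0.36) and the adenosine-forming enzyme Nt5e (0.54), with unadjusted p-values of 0.017, 0.032, 0.017 and 0.046 (limma). Xdh, which oxidises xanthine, differed by 0.02 (95% confidence interval -0.21 to 0.25).

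Several metabolic lists held no called gene and had most members on 1 side. Over all genes 45.7% were above 0, and 4.44% had a p under 0.05 upward and 4.53% downward. Of 17 targets of the receptors CAR and PXR 16 were above 0 with a median of 0.14, and 6 had a p under 0.05 upward. Nr1i3, which encodes CAR, had a difference of 0.52 and Cyp2c54 one of 0.42, with unadjusted p-values of 0.00043 and 0.0013 (limma). Cyp2b9 had 1.86 with an unadjusted p of 0.017, and Cyp2b10, the usual reporter of CAR, 0.24 (95% confidence interval -0.03 to 0.50). Of 21 genes of one-carbon metabolism 9 had a p under 0.05 upward and 2 downward, with a median of 0.15; Dmgdh, Cth and Sardh had 0.47, 0.41 and 0.33. Of 31 genes of amino acid breakdown 25 were above 0 and 8 had a p under 0.05 upward, none downward, with a median of 0.13.

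In other lists most members were below 0. Of 22 PPARa targets 4 were above 0, 6 had a p under 0.05 downward and none upward, and the median was -0.18. Ehhadh, a peroxisomal oxidation enzyme, had a difference of -0.80 with an unadjusted p of 0.00037 (limma), and Cpt1a, the gate of mitochondrial oxidation, -0.33. Of 25 immediate early genes 9 had a p under 0.05 downward and none upward. Egr1 had 9.66, 7.93 and 8.37 in HFCC, 8.36, 9.93 and 7.88 in HFGC, and 10.51, 9.88 and 10.31 in HFDC, so HFGC replicate 2 overlapped HFDC and the arrays with caffeine spread widely. The share of all genes with a p under 0.05 was 4.44% upward and 4.53% downward.

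The differences of respiratory and TCA cycle genes were small. Of 34 complex I subunits 33 were above 0, with a median of 0.07 and a highest value of 0.14, and 30 of 33 subunits of complexes III and IV and of ATP synthase were above 0, with a median of 0.05. Of 20 TCA cycle genes 17 were above 0 with a median of 0.06. An unadjusted p under 0.05 (limma) was reached by 2 of them upward and none downward, against 4.44% and 4.53% of all genes. No member of the respiratory and TCA cycle lists passed. The median SE over all genes tested, not of these lists, was 0.08. Of 33 proteasome subunits 13 were above 0 and no member reached an unadjusted p of 0.05.

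**Figure D4:**
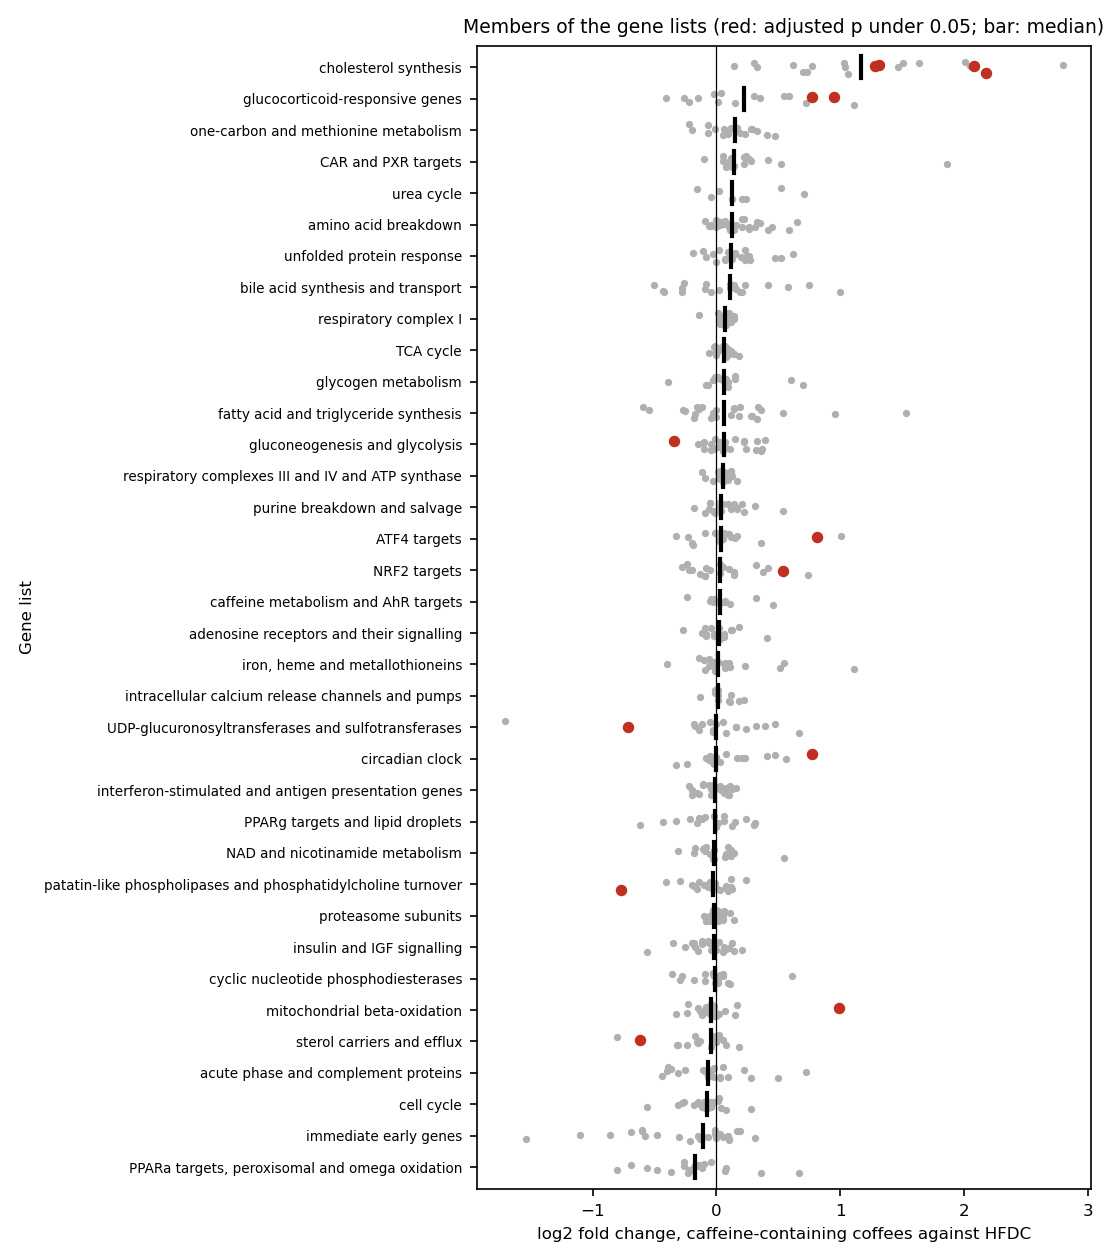
Log2 fold change of each measured member of 36 gene lists between the caffeine-containing coffees and HFDC (x axis), 1 point per gene, with called genes in red and the list median as a bar; lists are ordered by median. The cholesterol synthesis list stood at the right with a median of 1.17, and the other medians lay between -0.18 and 0.22.

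All 30 called genes had the same sign and an unadjusted p under 0.05 in HFCC and in HFGC against HFDC. Both comparisons share the HFDC arrays and both chose the genes, so this is a description; over all genes 7.97% reached that p in HFCC and 6.74% in HFGC. Against HFDC on its own, HFCC had 17 called genes (0.0934%) and HFGC 7 (0.0385%). Of the 30 genes 14 were called for HFCC and 7 for HFGC (Pnpla7, Kctd7, Dyrk2, Per1, Tsc22d3, Cmtm6 and Lin9). The difference from HFDC was larger in HFCC for 22 of the 30. Both counts depended on single arrays. The HFCC count was 40 without HFDC replicate 1 and 29 without HFGC replicate 1, and it was 2 to 10 without any 1 of the HFCC arrays, HFGC replicate 2, HFDC replicate 2 or 3, the HF arrays, or ND replicate 2 or 3. The HFGC count was 22 without HFDC replicate 1, and 0 to 4 without HFCC replicate 1 or 3, any 1 of the HFGC arrays, HFDC replicate 2 or 3, HF replicate 3, or ND replicate 2 or 3.

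**Figure D5:**
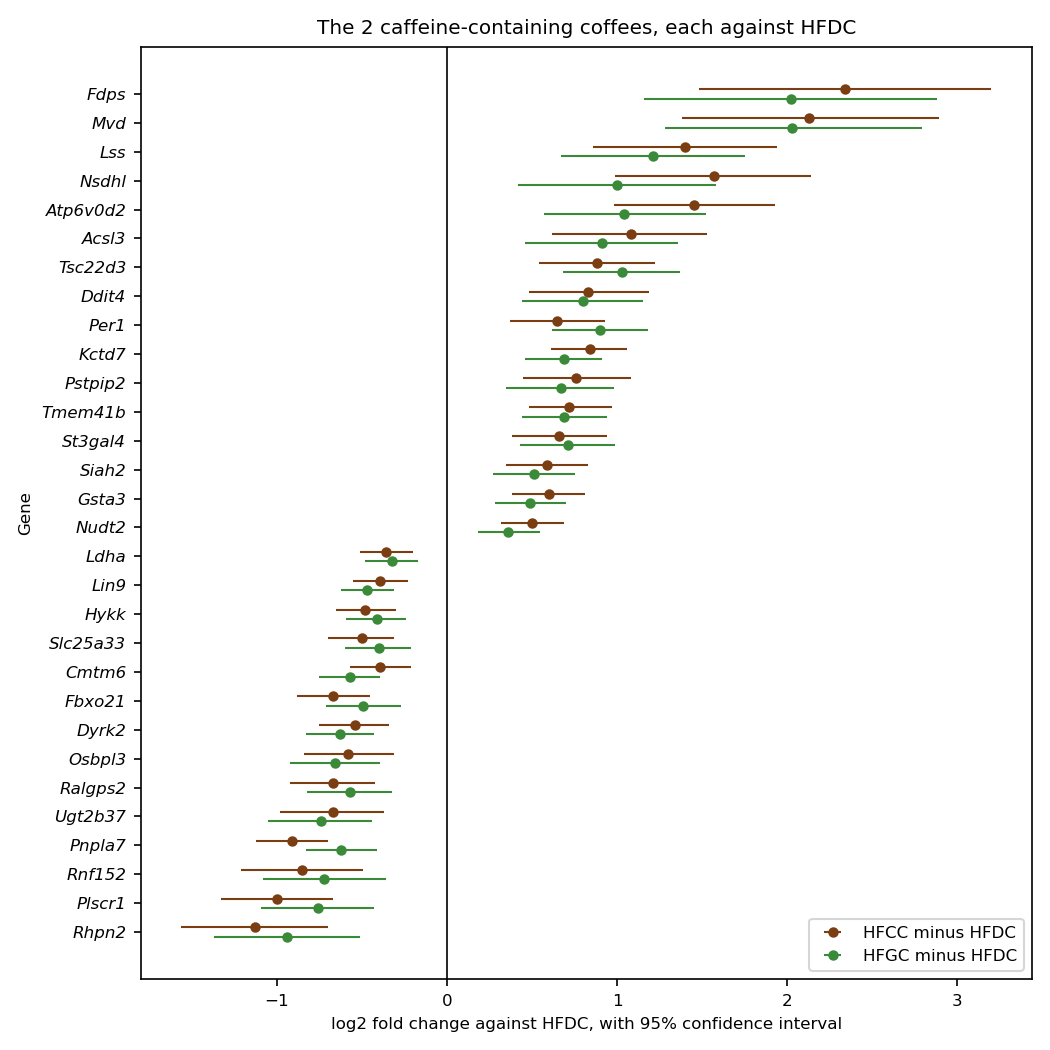
Log2 fold change of the 30 called genes in HFCC minus HFDC and in HFGC minus HFDC (x axis) with 95% confidence intervals, genes ordered by the fold change of both coffees together. Every interval lay on the same side of 0 for both coffees, and the intervals of the 2 coffees overlapped for each gene.

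HFGC and HFCC were compared with each other directly. No gene was called (limma), 464 genes (2.55%) had an unadjusted p under 0.05, and the smallest adjusted p was 1. Of the 30 called genes Pnpla7 alone had a smaller unadjusted p than 0.05 in this contrast. It was 0.29 higher in HFGC (95% confidence interval 0.07 to 0.50, adjusted p = 1 by limma). For Fdps the difference between HFGC and HFCC was -0.32 with an interval of -1.18 to 0.55, and for Mvd -0.10 with an interval of -0.85 to 0.65, so the intervals reached beyond 1.5-fold for both genes. For Tmem41b, St3gal4 and Ldha the intervals were -0.28 to 0.22, -0.23 to 0.33 and -0.12 to 0.19.

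Ildr2, Rdh11 and Pradc1 were called for HFCC against HFDC and not for the 2 coffees together. Ildr2, a membrane protein linked to hepatic lipid metabolism, had 8.35, 8.46 and 7.96 in HFCC, 7.78, 7.59 and 7.37 in HFGC, and 7.02, 7.13 and 7.32 in HFDC. It was 1.11 higher in HFCC (adjusted p = 0.042, limma), and HFGC differed from HFCC by -0.68 (unadjusted p = 0.0017, adjusted p = 1). Rdh11, a retinol dehydrogenase, was 1.41 higher in HFCC with an adjusted p of 0.042, against 0.73 in HFGC. HFGC did not have a called gene of its own beyond the 30.

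The place of the other diets differed between the called genes. Of the 16 higher genes the HF mean was nearer to HFDC for 10 and nearer to the coffees with caffeine for 6, and of the 14 lower genes it was nearer to HFDC for 8. The ND mean was nearer to HFDC for 14 of the higher genes and 7 of the lower ones. These counts are a description, and the same shares over all genes were not taken. Tmem41b, with 8.31 to 8.83 in HF, and Kctd7 were among those at the HFDC level. Ugt2b37, with 5.15 to 5.82 in HF and 5.29 to 5.51 in ND, was higher in HFDC than in each of the other diets. Osbpl3, at 6.06 to 6.72 in HF and 4.84 to 5.12 in ND, was lower in every coffee group than in HF. Of the 30 genes 15 were also called between the coffees with caffeine and HF (8.05% of all genes), 6 between HFDC and HF (5.02%) and 14 between HF and ND (13.5%), contrasts that share arrays with the one that chose the genes.

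RNA quality and cell type markers were set beside these results. The 3′ minus 5′ log2 value of the Gapdh and Actb control probe sets, which rises as RNA is broken, averaged 0.88 ± 0.12 (SD, n = 6) with caffeine and 0.93 ± 0.11 (SD, n = 3) in HFDC, a difference of -0.05 (two-sided exact permutation test over 84 ways, p = 0.571, smallest possible p = 0.012). It was 1.06 in HFDC replicate 1 and 0.86 in each of the other HFDC arrays. The HF arrays had a higher value, 1.22 ± 0.17 (SD, n = 3), at 1.08 to 1.4, and the ND arrays 0.88 ± 0.06 (SD, n = 3). The part of RNA quality in the comparisons with HF given above was not tested. No cell type marker was called. Macrophage markers summed to 7130 to 14308 with caffeine and 8703 to 10040 in HFDC, endothelial ones to 3424 to 4017 and 3905 to 4033, and neutrophil ones to 334 to 406 and 368 to 454. S100a8, a neutrophil gene, had a difference of -0.70 (unadjusted p = 0.013), while Mpo and Elane differed by -0.02 and 0.06, and their part in the results was not tested. Intestinal markers summed to 3063 to 3624 with caffeine and 3793 to 4364 in HFDC without overlap. Fabp2, a fatty acid binding protein, averaged 11.55 with caffeine and 11.87 in HFDC, a difference of -0.32 that did not pass. Cdx1 and Cdx2 averaged 4.85 and 5.91 with caffeine and 4.81 and 5.91 in HFDC.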

How the data were processed

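Total RNA of 15 livers was hybridised by the authors to whole-genome Affymetrix mouse arrays, 1 mouse per array and 3 arrays per diet. The deposited values were linear intensities per probe set that the authors had normalized by RMA, per the submitters' processing notes; their log2 was taken here. Precision is limited by how many arrays there were. The limma p-values set a difference against the spread between arrays of the same diet, each of 1 mouse. That spread was pooled over the diets and drawn toward the spread of all genes. Of 45101 probe sets 34945 had 1 gene symbol, 932 several and 9160 none in the platform annotation, and 34741 matched a gene ID. For each of 18193 genes the brightest probe set on average was used, and probe sets with the suffix x only where no other existed. Sets with the suffix s, which can bind several related transcripts, were kept and represent Mvd, Lss and Acsl3.

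Group means of all 5 diets were fitted together with limma 3.58.1 in R 4.3.3 (10 residual degrees of freedom), and the mean of HFCC and HFGC was set against HFDC. Genes with a Benjamini-Hochberg adjusted p under 0.05 were called. Named are all genes called for both coffees or for 1 of them, in each list the called members and up to 3 others with the largest change, and Cyp1a2, Cyp1a1, the adenosine receptors, Pnpla7 and Kctd7; further list members, the rest of cholesterol synthesis included, were named after their values were seen. The members and lists were chosen with earlier results of these data known. Lists are described by counts and medians, with no test. The fits were tested on simulated data. Alternatives were another probe set rule, offset, normalization, filter, array set, covariate, threshold, and each array left out. Promoter windows came from RefSeq. Scan dates were not used here.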

Additional observations from a re-analysis of the deposited data

Results flagged for a closer look

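In 8 of 154 items tested, which were genes and the 3′ minus 5′ value, 1 of the 6 arrays with caffeine lay far from the other 5. All 8 were genes. Chance marks about 1 in 20 such groups, so a number of this order can arise by chance. All values are log2 intensities.

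Dnajb9, a chaperone of the endoplasmic reticulum, was 11.61 in HFGC replicate 3 and 12.05 to 12.26 in the others. Syvn1, the ubiquitin ligase of the same stress response, was 10.72 in HFGC replicate 3 and 11.45 to 11.89 in the others. Sc5d, of the late steps of cholesterol synthesis, was 11.43 in HFGC replicate 1 and 11.77 to 11.97 in the others.

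Ahr, the dioxin receptor, was 10.12 in HFCC replicate 1 and 10.63 to 10.87 in the others. Mt2, a metallothionein, was 8.99 in HFCC replicate 1 and 7.70 to 8.06 in the others. Cpt1a, which admits fatty acids to mitochondrial oxidation, was 11.59 in HFCC replicate 1 and 11.74 to 11.82 in the others. C6, a complement component, was 9.49 in HFCC replicate 2 and 10.27 to 10.67 in the others. Pde4d, a cyclic AMP phosphodiesterase, was 5.69 in HFCC replicate 3 and 6.14 to 6.30 in the others.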

How the results depend on the processing

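The count of 30 called genes was 18 with the mean of probe sets, 16 with an offset of 32, 12 with the 9 compared arrays alone, 48 with HFCC and HFGC as 1 group and 93 at an adjusted p under 0.10. Leaving out 1 array gave 3 to 49. The HFCC count of 17 was 1 with the mean of probe sets, 2 with all probe sets, 2 with the offset, 6 with the 9 arrays and 60 at an adjusted p under 0.10, and 2 to 40 with 1 array left out. The HFGC count of 7 was 3 with the mean of probe sets, 0 with all probe sets, 0 with the offset, 1 with the 9 arrays and 1 with the 3′ minus 5′ covariate, and 0 to 22 with 1 array left out. The cholesterol synthesis count of 4, with alternatives chosen after seeing the data, was 1 with the mean of probe sets, 1 with the offset, 0 with the 9 arrays, 0 with trend and robust estimation, 8 with HFCC and HFGC as 1 group, and 0 to 15 with 1 array left out. No gene was called between HFGC and HFCC under any alternative run (limma). The causes were not tested.

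Replicate numbers are given in the labels. After removal of the group means, same-numbered arrays correlated between -0.119 and 0.227 and differently numbered ones between -0.217 and 0.161. The same-numbered pairs of HFCC and HFDC had 0.227, 0.178 and 0.06, and those of HFGC and HFDC 0.096, -0.119 and 0.016. Whether arrays of the same number shared a batch was not tested. With the replicate block the counts were 42 for both coffees, 2 for HFCC and 0 for HFGC.

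Among the named genes the sign changed for Pdk4, Socs2, Mki67, Ccna2 and Adora3. With all arrays their log2 fold changes were 0.36, -0.25, -0.56, -0.31 and 0.02. The log2 fold change of Pdk4 ranged between -0.019 and 0.704 with 1 array left out, that of Socs2 between -0.558 and 0.144 (0.134 without HFGC replicate 3), that of Mki67 between -0.937 and 0.171, that of Ccna2 between -0.489 and 0.042, and that of Adora3 between -0.036 and 0.088 (-0.02 without HFCC replicate 3, and -0.018 with the mean of probe sets). The 3′ minus 5′ difference ranged between -0.09 and 0.01. Of 864 list medians recomputed, 857 moved by less than the spread between replicates.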
